A study of Mus musculus with 6 samples.

Results

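The 10 genes described here are markers of mouse macrophages and monocytes. Csf1r, Lyz2, Cd68, Adgre1 and Cd163 are grouped here as broad markers, though Cd163 marks macrophages rather than monocytes. Mrc1, Timd4 and Folr2 are markers of resident tissue macrophages, and Ly6c2 and Plac8 are markers of monocytes. All 10 genes were chosen by gene symbol. Each symbol stood on a single row, and all 10 were found among the 54093 genes of the table. RNA came from right atria (RAs) of C57BL/6 wild-type mice, male or female, collected at P21. The VO group had volume overload from an aortocaval fistula (ACF), made at P7 by a needle puncture from the abdominal aorta into the inferior vena cava, and the sham group had sham surgery at the same age. Each group had 3 libraries, named here sham 1 to sham 3 and VO 1 to VO 3. The whole RA was read, so the markers were measured in RNA of all its cells, and fewer cells of a type cannot be told apart from less RNA per cell.

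The heart holds macrophages from birth. One population, seeded before birth and renewed in place, carries TIMD4, FOLR2 and the mannose receptor MRC1, takes up dying cells and debris, and is largely independent of the blood. The other is refilled from bone marrow monocytes, which carry high LY6C in the mouse and lose it as they mature into macrophages, and both depend on signals through the CSF1 receptor.

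A marker of atrial muscle was read in every library. Myl7, the atrial myosin light chain, stood at 5531 to 8501 FPKM in the sham group and at 2586 to 5056 FPKM in the VO group. FPKM is the number of fragments divided by gene length and by library size, a level per length, so levels of different genes can be compared. The libraries held 15963082 to 17237903 fragments on genes, the deepest being 7.99% deeper than the shallowest. Of the whole table, 12627 genes averaged 1 FPKM or more and were tested with limma on log2(FPKM + 0.1), two-sided, and all 10 markers were among them. Folr2 and Ly6c2 were at 0.859 and 0.746 FPKM in the sham mean and passed this limit only through the VO libraries.

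The 3 VO libraries were unlike each other, in ways that touch the results below. In VO 1, all 8 pan-leukocyte genes were at least 2 times the sham mean, and Ptprc (CD45) was at 6.74 FPKM against 1.502 to 1.68 in the sham group. The summed level of 10 neutrophil genes in VO 1 was 81.4 FPKM against 1.44 to 12.8 in the sham group. That of 8 cell cycle genes in the same library was 22.7 FPKM against 4.57 to 5.18. Of 10 atrial cardiomyocyte genes, 9 were below every sham library in VO 1 and 8 were in VO 3. The share of all tested genes below every sham library was not counted for any single VO library. VO 3 stood apart in 10 adipocyte genes, a list chosen after the values were seen, with a summed level of 1036 FPKM against 34.6 to 48.7 in the sham group. The mast cell genes also reached 14.9 FPKM in VO 3, against 4.59 to 7.20 in the sham group. In VO 2 the neutrophil, cell cycle and adipocyte genes were at 5.73, 4.12 and 45.4 FPKM, and 4 of the 10 cardiomyocyte genes were below every sham library. The part of these differences in the results on macrophage markers was not tested. The labels do not say whether each library was a separate animal, so p-values measure only the spread between these libraries, and 0.1 is the smallest p that an exact permutation test of 3 against 3 allows.

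In the sham RAs the markers ran from 118 to 0.746 FPKM. Lyz2 was the highest at 118 ± 13.9 FPKM (SD, n = 3), followed by Csf1r at 21.03 ± 2.49 and Adgre1 at 10.2 ± 0.407. These 3 levels were apart from each other and from all the rest, with no overlap between sham libraries. Mrc1 (7.56 ± 0.616), Cd68 (6.63 ± 0.435), Cd163 (6.62 ± 0.802) and Plac8 (5.44 ± 1.48) followed, and each overlapped its neighbor in this order. Timd4 stood clear below them at 2.94 ± 0.554. Folr2 (0.859 ± 0.377) and Ly6c2 (0.746 ± 0.130) were the lowest and could not be ordered by their spread. The sham libraries were close to each other for Adgre1, with a coefficient of variation of 3.98%, and far apart for Folr2, with 43.9%, where as few as 11 fragments stood behind a value.

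**Figure D1:**
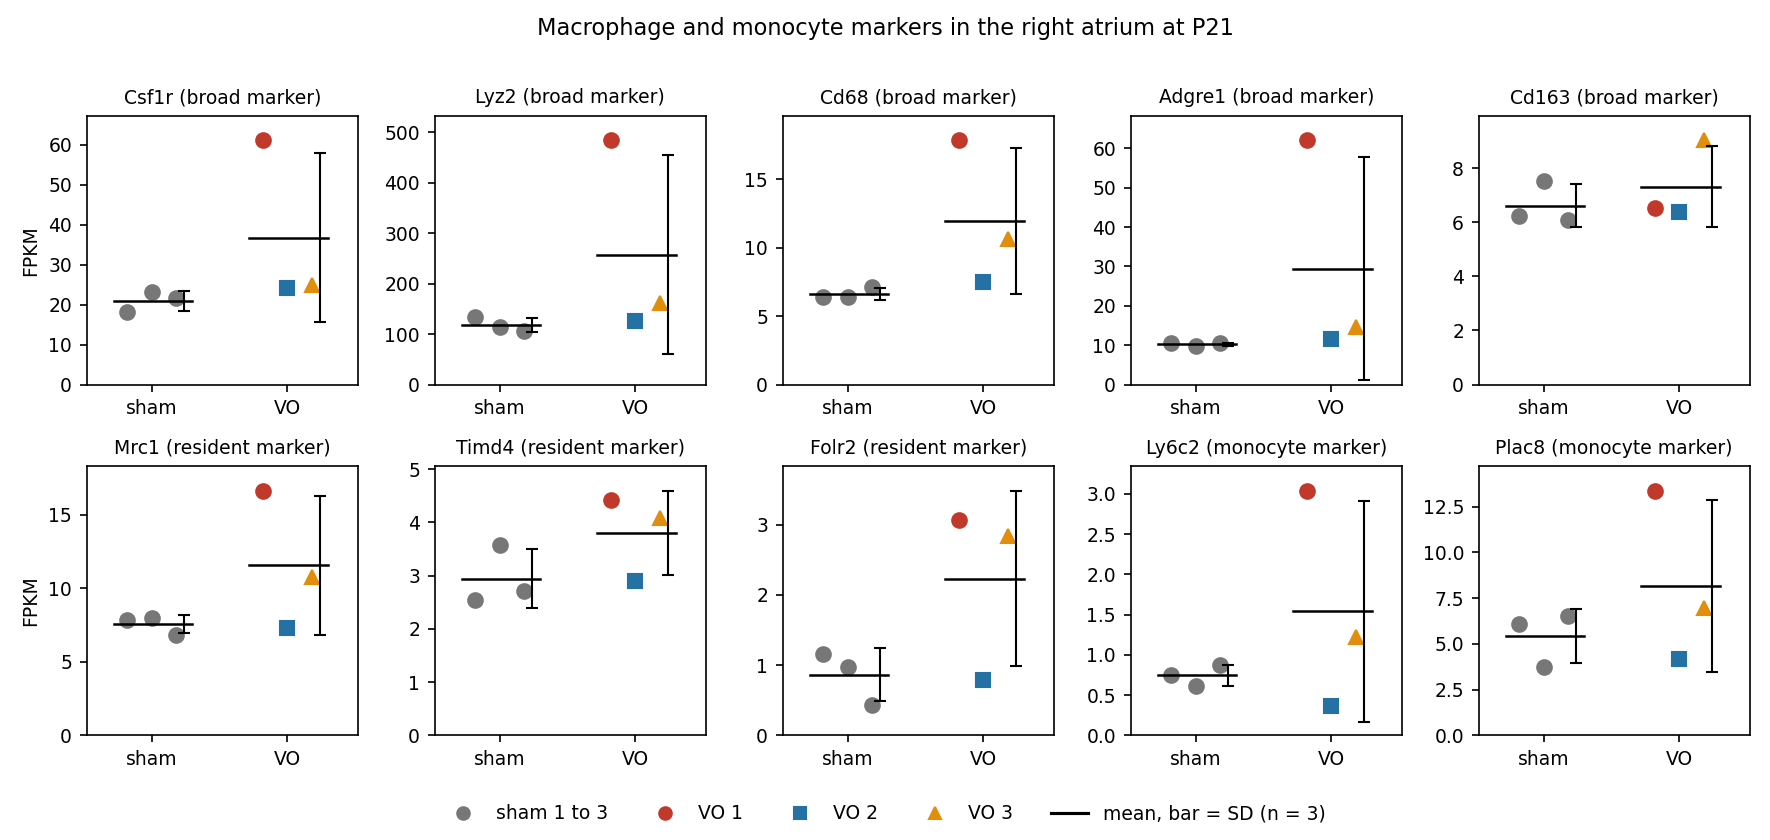
FPKM of the 10 markers in each library, in the RA at P21, on axes that start at 0. Gray points are sham 1 to 3 and colored points VO 1 to 3, with lines for the mean and bars for the SD (n = 3). VO 1 is the highest of the 6 libraries for 9 of the 10 markers and VO 3 is the highest for Cd163.

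Csf1r (chr18:61105572-61132149, plus strand, GRCm38) encodes the receptor for CSF1 and IL-34, on which the survival of macrophages depends. It was at 18.3, 23.1 and 21.7 FPKM in sham 1 to 3 and at 61.2, 24.2 and 25.04 FPKM in VO 1 to 3. The groups did not overlap, but VO 2 and VO 3 lay just above the highest sham library, and VO 1 was 2.91 times the sham mean. The log2 fold change of VO over sham was 0.67 ± 0.35 (SE), with an unadjusted p of 0.0957 and an adjusted p of 0.443 by limma.

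Lyz2 (chr10:117277331-117282321, minus strand) encodes the lysozyme of macrophages and neutrophils. Its levels were 133, 115 and 106 FPKM in the sham libraries and 485, 126 and 161 FPKM in VO 1, VO 2 and VO 3. The groups overlapped, with VO 2 inside the sham range and VO 1 at 4.11 times the sham mean. The log2 fold change was 0.87 ± 0.47 (limma, adjusted p = 0.451). Reads of Lyz2 could be shared with its neighbor Lyz1, since 5.96% of the 1242 distinct windows of 75 bases in its transcripts were also found there. Lyz1 was at 0.204 to 4.67 FPKM, so Lyz2 was at least 83.1 times as high in every library.

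Cd68 (chr11:69664213-69666153, minus strand) encodes a glycoprotein of lysosomes. It was read at 6.39, 6.37 and 7.13 FPKM in the sham group and at 17.8, 7.47 and 10.6 FPKM in the VO group. Every VO library was above every sham library, by the least in VO 2. Cd68 had a log2 fold change of 0.75 ± 0.29 with a 95% interval of 0.07 to 1.43. It was the only marker with an unadjusted p under 0.05, at 0.0348 by limma (adjusted p = 0.410).

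Adgre1 (chr17:57358691-57483527, plus strand) encodes the surface antigen by which mouse macrophages are usually stained. Its sham levels were 10.5, 9.76 and 10.4 FPKM and its VO levels 62.1, 11.6 and 14.6 FPKM. No VO library fell within the sham range, and VO 1 was 6.07 times the sham mean, more than for any other marker. On the log2 scale VO over sham was 1.09 ± 0.57 (limma, adjusted p = 0.447).

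Cd163 (chr6:124304656-124330527, plus strand) encodes the scavenger receptor for haptoglobin and hemoglobin. It was at 6.25, 7.54 and 6.07 FPKM in the sham group and at 6.52, 6.39 and 9.04 FPKM in the VO group. Unlike the other broad markers it was within the sham range in VO 1, and only VO 3 was above it. Its log2 fold change was 0.13 ± 0.17 with a 95% interval of -0.26 to 0.52 (limma, adjusted p = 0.719).

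The first of the resident markers, Mrc1 (chr2:14229392-14332057, plus strand), encodes the mannose receptor CD206. It was at 7.81, 8.004 and 6.85 FPKM in the sham libraries and at 16.6, 7.28 and 10.8 FPKM in VO 1, VO 2 and VO 3. VO 2 lay inside the sham range and the other VO libraries above it. The log2 fold change was 0.53 ± 0.28 (limma, adjusted p = 0.443).

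Timd4 (chr11:46810800-46844332, plus strand) encodes TIM-4, a receptor for the phosphatidylserine that dying cells expose. Its levels were 2.54, 3.58 and 2.71 FPKM in the sham group and 4.41, 2.91 and 4.09 FPKM in the VO group. VO 1 and VO 3 were above all sham libraries at 1.499 and 1.39 times the sham mean, and VO 2 was near it. Timd4 had a log2 fold change of 0.35 ± 0.20 with a 95% interval of -0.13 to 0.83 (limma, adjusted p = 0.473).

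Folr2 (chr7:101839988-101857194, minus strand) encodes the folate receptor beta of macrophages. It was read at 1.16, 0.976 and 0.437 FPKM in the sham group, from 28, 26 and 11 fragments, and at 3.07, 0.794 and 2.83 FPKM in the VO group, from 86, 20 and 72 fragments. VO 1 and VO 3 were both above every sham library, at 3.57 and 3.30 times the sham mean, while VO 2 was inside the sham range. The log2 fold change was 1.17 ± 0.57 with a 95% interval of -0.17 to 2.503 (limma, adjusted p = 0.430).

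Of the monocyte markers, Ly6c2 (chr15:75108158-75111970, minus strand) encodes LY6C2, a part of the LY6C antigen that defines inflammatory monocytes. It was at 0.751, 0.614 and 0.874 FPKM in the sham libraries, from 32, 29 and 39 fragments. In the VO libraries it was at 3.04, 0.358 and 1.22 FPKM, from 151, 16 and 55 fragments. The VO libraries held both the highest level, in VO 1, and the lowest, in VO 2. For Ly6c2 the log2 fold change was 0.56 ± 0.67 with a 95% interval of -1.01 to 2.13 (limma, adjusted p = 0.700).

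Ly6c2 has a close neighbor, Ly6c1, which endothelial cells express, and 9.46% of the 2737 distinct windows of 75 bases in the transcripts of Ly6c2 were shared with it. Ly6c1 was far higher, at 57.9, 36.7 and 58.9 FPKM in the sham group and 34.4, 41.6 and 57.3 FPKM in the VO group. It was lowest in VO 1, where Ly6c2 was highest, so the ratio of Ly6c2 to Ly6c1 was 0.0883 in that library against 0.0130 to 0.0167 in the sham group.

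Plac8 (chr5:100553725-100572245, minus strand) encodes a small cysteine-rich protein found in monocytes and also in neutrophils and lymphocytes. It was at 6.06, 3.75 and 6.52 FPKM in the sham group and at 13.4, 4.16 and 6.95 FPKM in the VO group. VO 1 was well above the sham range, VO 3 just above it and VO 2 inside it. Plac8 had a log2 fold change of 0.46 ± 0.42 (limma, adjusted p = 0.614).

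RefSeq windows of the 250 bases before the gene start (GRCm38.p6) were found for 8 of the 10 markers and searched on both strands for letters bound by factors of the macrophage lineage. The letters were GAGGAAGT for PU.1, GGAA and GAAA with any 2 bases between them for the joint site of an ETS and an IRF factor, and TGCTGAC for MAF factors. Sites of the first and of the joint kind can overlap at GGAA. The PU.1 letters, the joint site and the MAF letters were present in 2.44%, 2.30% and 3.81% of all 32851 promoter windows of this length. The first was found in Ly6c2, the joint site in Timd4 and Folr2, and the MAF letters in Timd4, and none of the other 5 windows held any. The windows of these 3 genes are shown because they carry the matches in the resident and monocyte markers, with that of Ly6c1 to compare with Ly6c2. Capitals mark the matches.
Timd4, chr11:46810549-46810798, plus strand: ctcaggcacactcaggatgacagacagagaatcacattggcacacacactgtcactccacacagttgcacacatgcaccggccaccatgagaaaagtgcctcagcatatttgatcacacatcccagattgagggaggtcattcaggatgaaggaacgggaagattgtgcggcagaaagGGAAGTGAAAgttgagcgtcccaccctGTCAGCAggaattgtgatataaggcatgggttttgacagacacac
Folr2, chr7:101857191-101857440, minus strand: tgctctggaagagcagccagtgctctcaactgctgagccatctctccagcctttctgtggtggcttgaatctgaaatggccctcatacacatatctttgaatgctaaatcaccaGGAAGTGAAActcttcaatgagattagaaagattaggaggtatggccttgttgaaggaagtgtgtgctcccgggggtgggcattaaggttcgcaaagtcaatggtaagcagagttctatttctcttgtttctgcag
Ly6c2, chr15:75111972-75112221, minus strand: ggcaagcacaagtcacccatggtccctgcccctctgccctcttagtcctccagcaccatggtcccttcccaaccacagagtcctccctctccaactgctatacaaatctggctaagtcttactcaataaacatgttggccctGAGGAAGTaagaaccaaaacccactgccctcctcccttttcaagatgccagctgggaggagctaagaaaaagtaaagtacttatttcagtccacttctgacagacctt
Ly6c1, chr15:75048838-75049087, minus strand: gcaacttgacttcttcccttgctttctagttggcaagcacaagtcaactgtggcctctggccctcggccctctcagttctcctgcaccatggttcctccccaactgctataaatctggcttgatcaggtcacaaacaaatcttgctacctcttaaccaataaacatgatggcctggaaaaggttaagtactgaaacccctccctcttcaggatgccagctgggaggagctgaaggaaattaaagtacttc
In Timd4 the joint site began 72 bases before the start and the MAF letters, on the opposite strand, 45 bases before it. The joint site of Folr2 began 136 bases before the start, and the PU.1 letters of Ly6c2 began 108 bases before it. Over 216 aligned bases, 75.9% of the Ly6c2 and Ly6c1 windows were identical, and Ly6c1 held no match. A match of letters is a description of the window and does not show that a factor binds there.

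Set side by side, no marker passed the adjusted threshold of 0.05, which 0.00792% of all tested genes did. Of the 10 markers, 1 had an unadjusted p under 0.05 by limma, against 12.0% of all tested genes, or 3.89% counting only those higher in VO. All 10 had a higher mean log2 level in the VO group, against 48.5% of all tested genes, and their median log2 fold change was 0.62 against -0.01 for all tested genes. The groups did not overlap and VO was higher for 3 of 10 (Csf1r, Cd68 and Adgre1), against 8.25% of all tested genes. The median log2 fold change was 0.75 for the 5 broad markers, Cd163 among them, 0.53 for the 3 resident markers and 0.51 for the monocyte markers. These counts and medians include Folr2 and Ly6c2, which were tested only because of their VO levels, and are descriptions. Without Folr2 the resident median was 0.44, and without Ly6c2 the monocyte value was 0.46, that of Plac8. The difference between the resident and the monocyte markers was not tested.

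The VO libraries differed in how far the markers lay from the sham level. In VO 1, 8 of 10 markers were at least 2 times the sham mean, against 4.36% of all tested genes, and 9 of 10 were above every sham library, against 32.7%. In VO 3, 1 marker (Folr2) was at least 2 times the sham mean, against 2.13% of all tested genes, but all 10 were above every sham library, against 27.5%. In VO 2, 0 of 10 markers were at least 2 times the sham mean, against 0.871% of all tested genes, and 3 were above every sham library, against 24.6%. The median log2 difference of the markers from the sham mean was 1.48 in VO 1, 0.49 in VO 3 and -0.01 in VO 2. The markers were thus farthest above the sham level in VO 1, less far in VO 3 and near it in VO 2.

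Without VO 1, the median log2 fold change of the 10 markers was 0.23 by limma, and that of the broad and the resident markers was 0.28 and 0.24. Then 9 of the 10 were higher in VO, against 48.9% of all tested genes. Cd68 (0.42 ± 0.17) and Adgre1 (0.35 ± 0.13) then had unadjusted p-values of 0.0456 and 0.0370, against 7.42% of all tested genes with one under 0.05, and adjusted p-values of 0.670 and 0.668. The monocyte markers were split in direction without VO 1, with log2 fold changes of -0.11 ± 0.54 for Ly6c2 and 0.023 ± 0.31 for Plac8. The resident marker Folr2 was at 0.85 ± 0.61 without VO 1 (limma, adjusted p = 0.739). Without VO 2, 9 of the 10 markers had an unadjusted p under 0.05 by limma, with Cd163 as the exception. Folr2 and Ly6c2, which were tested only because of their VO levels, are among them, and their values are descriptions. Of all 12627 tested genes, 1998 were then under 0.05, against 1511 with all libraries. The lowest adjusted p of a marker without VO 2 was 0.243, for Cd68 and Folr2. Without VO 3, no marker had an unadjusted p under 0.05 by limma, while 1450 of all 12627 tested genes did. The log2 fold change of Cd163 was then -0.030 ± 0.14.

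**Figure D2:**
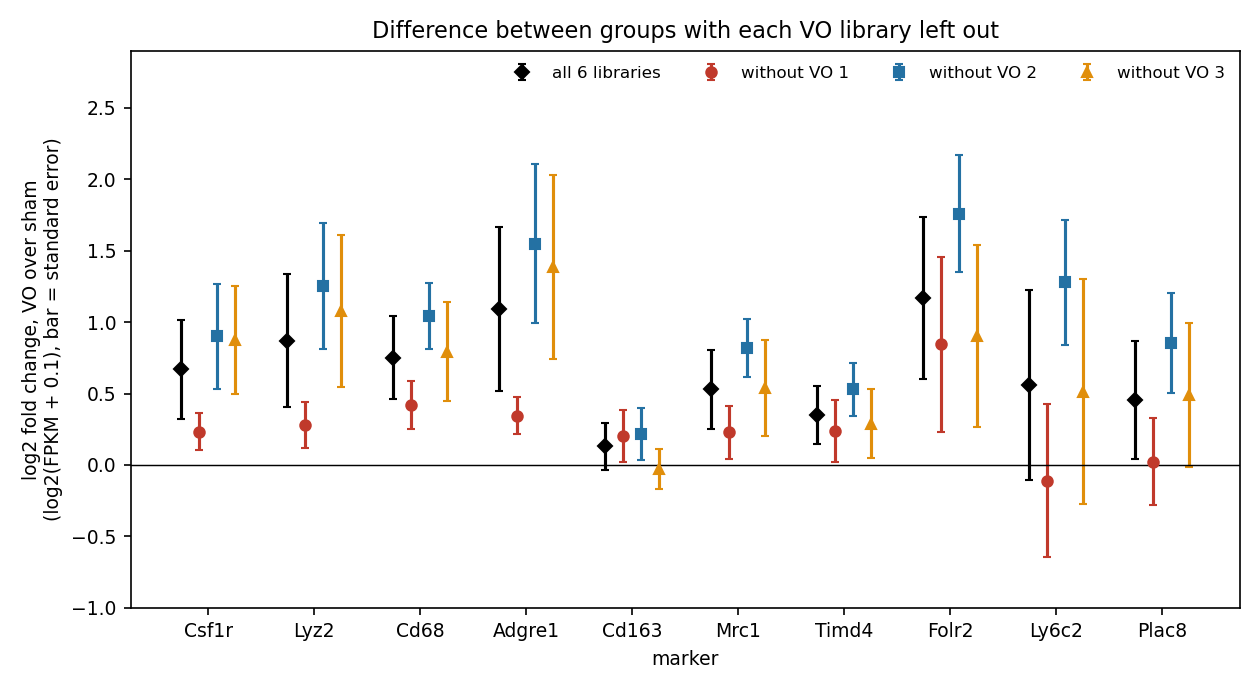
Log2 fold change of VO over sham for each marker on the log2(FPKM + 0.1) scale, fitted with all 6 libraries and with each VO library left out, with bars for the standard error. For Ly6c2 the value goes from 0.56 with all libraries to -0.11 without VO 1 and 1.28 without VO 2.

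The mix of markers was then compared within libraries, by dividing each marker by Csf1r of the same library, a ratio that no scaling between libraries can change. In VO 1 the ratio of Cd163 to Csf1r was 0.107 against 0.280 to 0.342 in the sham group. The ratio of Timd4 was 0.0721 in VO 1 against 0.125 to 0.155, and that of Mrc1 was 0.272 against 0.316 to 0.427. Thus Timd4 and Mrc1 were higher in VO 1 than in any sham library as levels, and lower than in any as shares of Csf1r. VO 2 was also below every sham library for these 3 ratios, by less, with 0.264 for Cd163, 0.120 for Timd4 and 0.301 for Mrc1. Adgre1 and Lyz2 were on the other side in VO 1, at 1.01 of Csf1r against 0.422 to 0.575 in the sham group and at 7.92 against 4.89 to 7.29. Folr2 was in neither set, at 0.0501 in VO 1, inside the sham range of 0.0201 to 0.0637. Ly6c2 was at 0.0496 of Csf1r in VO 1 and 0.0487 in VO 3, both above the sham range of 0.0265 to 0.0411, and at 0.0148 in VO 2, below it. Plac8 was inside its sham range of 0.162 to 0.331 in all VO libraries.

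In VO 3, 7 of the 9 ratios to Csf1r were above the sham range and 0 were below it. They were those of Folr2 (0.113), Cd68 (0.423 against 0.275 to 0.350), Adgre1 (0.583), Cd163 (0.361), Timd4 (0.163), Mrc1 (0.430) and Ly6c2. Cd163, Timd4 and Mrc1 were thus below the sham range in VO 1 and VO 2 and above it in VO 3. For none of the 9 ratios were the VO libraries all on the same side of the sham range. All 9 share Csf1r as the divisor, and in VO 3 Csf1r was 1.19 times its sham mean, the least of the 10 markers. Divided by Ptprc, the common leukocyte antigen, Cd163 was at 0.967 in VO 1 against 3.95 to 4.49 in the sham group, Timd4 at 0.655 against 1.69 to 2.13 and Mrc1 at 2.47 against 4.45 to 5.20. Csf1r itself was at 9.08 of Ptprc in VO 1 against 12.2 to 14.1, Cd68 at 2.65 against 3.79 to 4.63 and Plac8 at 1.98 against 2.24 to 4.24. Thus 6 of the 10 ratios to Ptprc were below the sham range in VO 1, and 1, that of Adgre1, was above it. Lyz2, at 71.9, was inside its sham range of 68.2 to 88.7. VO 2 was again below the sham range, by less, at 3.71 for Cd163, 1.686 for Timd4 and 4.22 for Mrc1, and also for Ly6c2. VO 3 was inside the sham range for Cd163 and Timd4 and above it for Mrc1, at 5.26. In VO 3, 5 of the 10 ratios to Ptprc were above the sham range and 0 below it. None of these ratios was tested as a difference between groups.

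**Figure D3:**
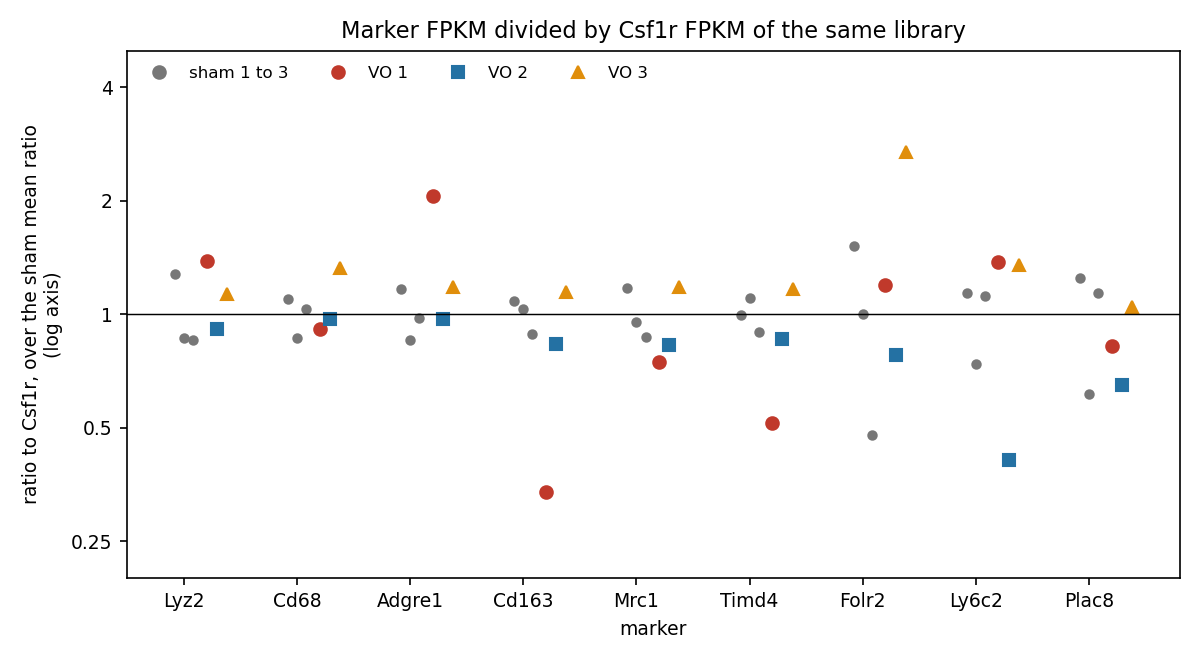
FPKM of each marker divided by FPKM of Csf1r in the same library, over the mean of that ratio in the sham group, on a log axis. Gray points are sham 1 to 3 and colored points VO 1 to 3. In VO 1 the ratio of Cd163 is 0.337 and that of Timd4 0.516 of the sham mean, while that of Adgre1 is 2.06 times it.

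Other genes of resident macrophages were read as a list of 20, of which 16 were tested. In VO 10 of these were higher and 6 lower, and the median log2 fold change was 0.03. Without VO 1, 12 were higher and the median was 0.17. By limma, 3 had an unadjusted p under 0.05 and were higher, 1 was lower, and 0 passed adjustment. The 4 of highest level were Gas6, a bridge to dying cells, Lyve1, the hyaluronan receptor, Pf4, a chemokine, and Ninj1, a membrane protein of rupturing cells. Lyve1 was at 26.7, 30.1 and 37.6 FPKM in the sham group and at 14.3, 31.2 and 34.0 FPKM in the VO group. Lyve1 was thus lowest in VO 1, where Timd4 and Mrc1 were highest. Lymphatic endothelial cells express Lyve1 too, so its level cannot be assigned to macrophages. Ninj1 had a log2 fold change of -0.76 ± 0.21 with no overlap between the groups (limma, adjusted p = 0.380), and is expressed in many other cells. Gas6, which other cells express too, was at 133 to 141 FPKM in the sham group and 102 to 128 FPKM in the VO group. Pf4 was at 18.1 to 50.9 and 20.4 to 35.7 FPKM.

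In VO 1, 6 of the 16 were above every sham library, near the share of 32.7% of all tested genes. Below every sham library were 6, and the share of all tested genes below was not counted. The genes that follow were chosen after their values were seen. Of those below in VO 1, 3 were above every sham library in VO 3. Cbr2, a carbonyl reductase of resident macrophages, was at 5.46 to 10.5 FPKM in the sham group, 1.87 in VO 1 and 12.7 in VO 3. F13a1, the coagulation factor subunit, was at 2.58 to 3.67 FPKM in the sham group, 1.44 in VO 1 and 7.47 in VO 3. Mgl2, a C-type lectin also found on dendritic cells, had 0.0501 times its sham mean in VO 1 and 2.51 times it in VO 3. Those above in VO 1 were Stab1, Mertk, Igf1, Fcrls, C4b and Vsig4. Vsig4, a complement receptor, was at 63.9 FPKM in VO 1 against 19.2 to 23.6 in the sham group. C4b, a complement component, Igf1, a growth factor, and Fcrls, an Fc receptor-like protein, were the 3 genes with an unadjusted p under 0.05 that were higher in VO, with log2 fold changes of 0.75, 0.61 and 0.51. Since the count above was near the share of all tested genes, these values describe the named genes and not a trait of the list. C4b and Igf1 are also expressed by cells other than macrophages, and no difference within the list was tested.

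Among 20 other core macrophage genes, all tested, 18 had a higher and 2 a lower mean in VO. The median log2 fold change was 0.58. Itgam and Ms4a7 averaged under 1 FPKM in the sham group and were tested only because of their VO levels, and without them 16 of 18 were higher with a median of 0.51. In VO 1, 14 of the 20 were at least 2 times the sham mean, in VO 2 and VO 3 none were, and the median without VO 1 was 0.15. By limma, 3 had an unadjusted p under 0.05, all higher, and 0 passed adjustment. Of the 4 of highest level, Apoe, the lipid carrier, was at 376 to 730 FPKM in the sham group and 330 to 402 FPKM in the VO group. The complement gene C1qb was at 151 FPKM in VO 1 against 53.5 to 79.3 in the sham group, and the protease gene Ctss at 173 against 42.1 to 47.3. Lgmn, the lysosomal legumain, was at 78.6 FPKM in VO 1 against 48.1 to 58.0.

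Of 15 genes of the CSF1 axis and of the factors that set the lineage, 13 were tested. In VO 12 of them were higher, the median log2 fold change was 0.51, and none had an unadjusted p under 0.05 by limma. Without VO 1, 10 were higher and the median was 0.23. Csf2rb was tested only because of its VO levels, and without it 11 of 12 were higher with a median of 0.49. The ligand Csf1 was at 9.10 to 12.4 FPKM in the sham group and at 14.8, 12.3 and 13.7 FPKM in VO 1, VO 2 and VO 3. Tyrobp, the adaptor of myeloid receptors, was at 35.7 FPKM in VO 1 against 11.7 to 16.1 in the sham group, and inside that range in VO 2 and VO 3. Cebpb was the only gene of the 13 with a lower mean, at 16.1 to 27.2 FPKM in the sham group and 12.9 to 18.03 FPKM in the VO group, and Klf4 was at 11.1 to 12.3 and 9.20 to 14.8 FPKM.

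Of 20 other genes of monocytes, 11 were tested. In VO 10 of these were higher, with a median log2 change of 0.71, or 0.42 without VO 1. Hp was tested only because of its VO levels, and without it 9 of 10 were higher with a median of 0.64. By limma, 4 had an unadjusted p under 0.05 and were higher, 1 was lower, and 0 passed adjustment. Among the 4 of highest level, Fn1, fibronectin, which fibroblasts also make, was at 14.8 to 24.7 FPKM in the sham group and at 52.4, 28.7 and 28.8 FPKM in the VO group, with no overlap. Nr4a1, the nuclear receptor needed by LY6C-low monocytes and an early response gene of many cells, was at 6.91 to 16.4 FPKM in the sham group and 4.79 to 6.83 in the VO group, also without overlap. Their log2 fold changes were 0.80 ± 0.29 and -0.87 ± 0.31, with adjusted p-values of 0.407 and 0.408. Ifitm3 was at 215 to 358 FPKM and Gsr at 5.95 to 8.47 FPKM over the 6 libraries. Ccr2, the chemokine receptor that brings monocytes into tissue, named after its values were seen, was higher in every VO library, at 2.99, 1.51 and 2.38 FPKM against 1.124 to 1.27 in the sham group (log2 fold change 0.85 ± 0.27, limma, adjusted p = 0.404).

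Inflammatory and repair genes of macrophages were mostly too low to be tested, 4 of 12 being tested, of which 2 were higher and 2 lower. The median log2 change of these 4 was -0.06. Il1b, the cytokine interleukin-1 beta, was at 0.303, 0.213 and 0.258 FPKM in the sham group and at 4.62, 0.836 and 1.56 FPKM in the VO group. Every VO library was above every sham library. Il1b reached the limit for testing only through its VO levels, so its log2 fold change of 2.45 is given as a description, and neutrophils express it too. Of the 3 genes other than Il1b, 1 was higher and 2 were lower. Lgals3 was at 70.3 to 123 FPKM in the sham group and 53.7 to 85.6 FPKM in the VO group, while Cd9 and Fabp5 had log2 fold changes of 0.00 and -0.12.

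**Figure D4:**
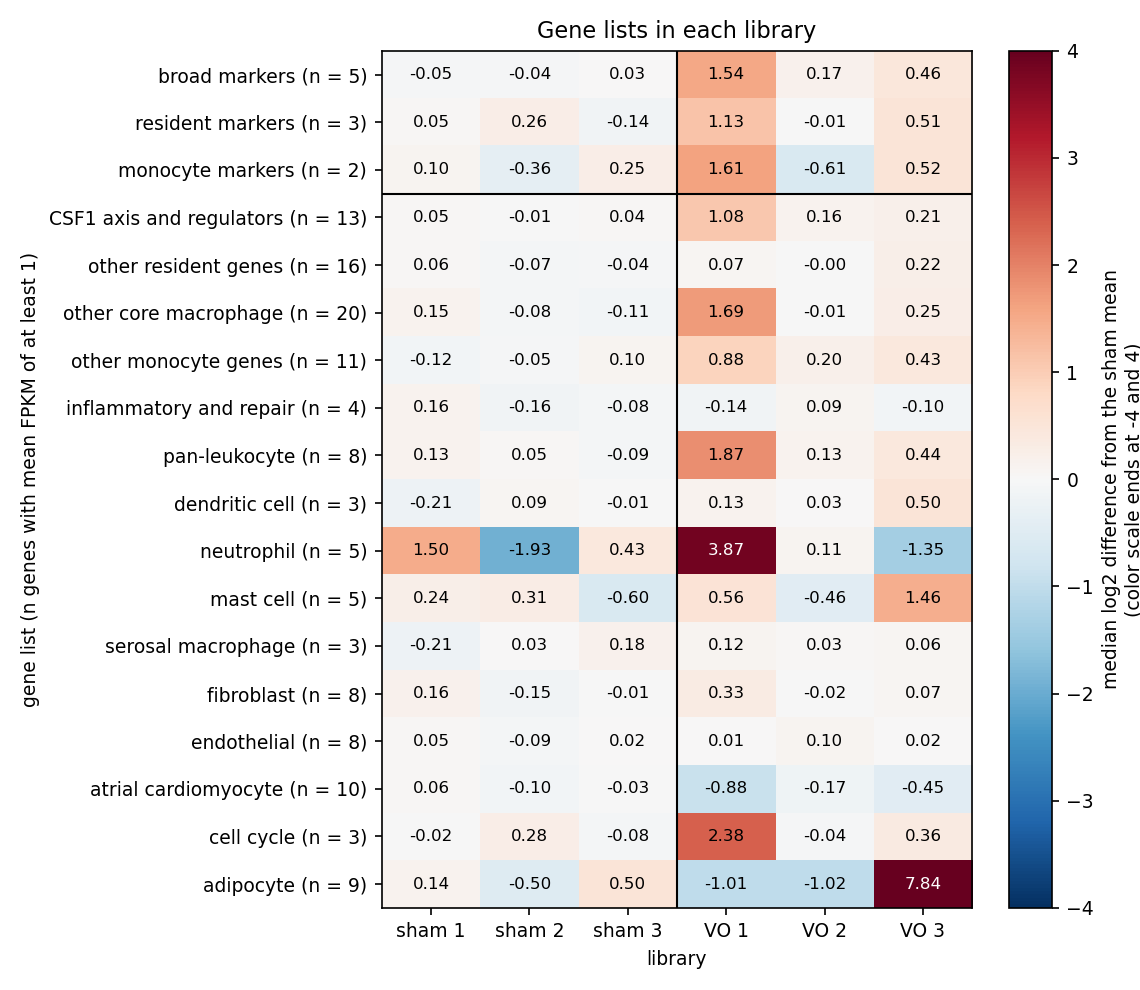
Median log2 difference from the sham mean over the tested genes of each list (rows) in each of the 6 libraries (columns). Colors run from blue (lower) to red (higher), and values past the ends of the scale take its end colors. The broad, resident and monocyte markers stand at 1.54, 1.13 and 1.61 in VO 1 beside 3.87 for the neutrophil list, and the adipocyte list stands at 7.84 in VO 3. Some genes were tested only because of their VO levels. They were 3 of 3 in the cell cycle list, 3 of 5 in the neutrophil list, 3 of 5 in the mast cell list and 7 of 9 in the adipocyte list. Several other lists held 1 or 2 such genes, among them Folr2 and Ly6c2.

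Markers of other leukocytes varied with the macrophage markers in VO 1. S100a9 and S100a8, the calgranulins of neutrophils, were at 35.3 and 18.9 FPKM in VO 1, against 0.111 to 4.56 and 0.0836 to 4.54 FPKM in the sham group. In VO 3 they were at 0.466 and 0.0876 FPKM. Of the T and NK cell genes none reached the limit for testing, and their summed level was 7.28 FPKM in VO 1 against 1.28 to 2.29 in the sham group. The B cell gene Cd79b was at 4.62 FPKM in VO 1 against 1.07 to 1.84 in the sham group. Lyz2 and Plac8 are known from neutrophils as well, and their levels in VO 1 cannot be divided between the cell types. Genes of immature T cells, the thymocyte list, summed to 5.86 FPKM in VO 1 and 9.07 in VO 3 against 2.62 to 3.31 in the sham group, while Foxn1, of the thymic epithelium, was at 0 in every library. Most of each sum was Cd1d1, the only gene of that list that was tested and a gene that other cells express too. The part of immature T cells in these sums was not tested. Cd1d1 was at 2.41 to 2.87 FPKM in the sham group and at 5.53, 3.53 and 7.90 FPKM in the VO group (log2 fold change 1.00 ± 0.27, limma, adjusted p = 0.383). In VO 3 the neutrophil genes summed to 2.64 FPKM, inside the sham range. The T and NK cell genes summed to 3.15 FPKM there, above their sham range. The B cell genes summed to 4.56 FPKM in VO 3 against 2.89 to 3.79 in the sham group. The adipocyte and mast cell genes were also above the sham range in VO 3, as given above. The part of all these genes in the levels of the macrophage markers was not tested.

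For 5 of the markers, the genes most like them were sought over the 6 libraries by the root mean square (RMS) difference of log2(FPKM + 0.1), each gene centered on its own mean. For Csf1r they were Prex1, Gmip and Cd44, with RMS differences of 0.0791 to 0.0994. For Timd4 they were Gm14325, Dpy19l1 and Actb, with 0.0646 to 0.0754. Folr2 was most like Anxa8, Car13 and Glipr1, at 0.190 to 0.321. Ly6c2 was most like Gm12250, Cd86 and Itgam, at 0.184 to 0.262, and Plac8 was most like H2-M3, Tlr8 and Psmb9, at 0.0956 to 0.131. Itgam (CD11b) and Cd86 are themselves myeloid genes, and Psmb9 and H2-M3 belong to antigen presentation. With 6 libraries of which VO 1 stands far from the rest, many genes can share such a pattern.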

How the data were processed

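RNA of RAs was sequenced by the authors in 6 libraries of a NEBNext Ultra RNA kit, as 150-base read pairs. Per the labels and methods they aligned with HISAT2 2.0.5, counted with featureCounts 1.5.0-p3 on GRCm38 and deposited FPKM values. The deposited FPKM already carried a scaling between libraries, with a median-of-ratios factor of 1.00 in each, and returned whole fragments for 100% of values (tolerance 0.01). A column of gene lengths came with them. The table held 54093 complete genes, and 1 incomplete line was left out. Coordinates were identical to GENCODE M21 for 98.4% of the 54039 shared genes and for 9 of the 10 markers, Csf1r being the exception.

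FPKM values scaled by the median of ratios, with a mean of at least 1, were fitted as log2(FPKM + 0.1) with limma 3.58.1 in R 4.3.3 (eBayes with a trend, two-sided, no covariate), with Benjamini-Hochberg adjustment over 12627 genes and a threshold of 0.05. A fold change on this scale understates that of low genes. Medians, counts over lists and ratios have no test. Intervals are 95% intervals of the fit. The fit was checked on simulated data with planted changes. Replicate numbers were not taken as pairs, since same-numbered sham and VO libraries had correlations of deviations across genes of -0.108, 0.0112 and -0.0292. Alternatives were other pseudocounts, filters, scalings and variance settings, voom on recovered fragments, array weights, a replicate block and each library left out.

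The markers and lists were chosen with earlier results of these data known. All 10 markers are named. In each list of macrophage or monocyte genes the 4 of highest mean FPKM are named, in lists of other cells the 2 of highest mean or those at 0, and genes outside this rule are said to be chosen after their values were seen. Motifs were searched in RefSeq promoter windows, and figures were drawn with matplotlib 3.10.9. The authors' DESeq2 test was not repeated.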

Additional observations from a re-analysis of the deposited data

How the results depend on the processing

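Over the 20 alternatives, no marker passed an adjusted p of 0.05 by limma, and the lowest adjusted p of each lay between 0.243 (Cd68, without VO 2) and 0.465 (Cd163, with TPM). Leaving out 1 library changed 3 directions. The median log2 fold change of the monocyte markers ranged from -0.044 (without VO 1) to 1.07 (without VO 2), that of Ly6c2 from -0.11 (without VO 1) to 1.28 (without VO 2), and that of Cd163 from -0.030 (without VO 3) to 0.23 (without sham 2). The number of markers with an unadjusted p under 0.05 by limma ranged from 0 to 9 when each library was left out. It was 9 without VO 2, 2 without VO 1 and 0 without VO 3 or any sham library, and stayed at 1 in the other alternatives. The 9 include Folr2 and Ly6c2, which were tested only because of their VO levels. Leaving out VO 2 also raised the number of all 12627 tested genes under 0.05, from 1511 to 1998. The number of all tested genes past the adjusted threshold was 1, and became 2 with a pseudocount of 1, 3 with a filter of 0.1 or eBayes without trend, and 0 with quantile normalization, robust variance or the replicate block, and 0 to 0 with each library left out. The replicate block left 932 genes with an unadjusted p under 0.05 in place of 1511 and changed no call of a marker. TPM moved the median of all tested genes to 0.13 and that of the markers to 0.76, and array weights moved that of the markers to 0.38. With a filter of 5, Timd4, Folr2 and Ly6c2 were not tested, so the medians of all, resident and monocyte markers have no value there. The cause of these changes was not tested. Depth limits Folr2 and Ly6c2 most, with 11 to 151 fragments behind a value, while Csf1r had 1389 to 5425.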

Other observations

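Markers of dendritic cells showed no common direction, with 3 of 8 genes tested, of which 1 was higher and 2 were lower in VO. Clec9a, the receptor of cross-presenting dendritic cells, was at 2.05 to 2.96 FPKM in the sham group and 1.699 to 2.63 FPKM in the VO group. Zbtb46, a transcription factor of dendritic cells that endothelial cells express too, was at 1.496 to 1.91 and 2.04 to 2.51 FPKM. The groups did not overlap (log2 fold change 0.34, adjusted p = 0.439 by limma). Gata6 and Icam2, known from macrophages of body cavities and also expressed by cells of the heart, had log2 fold changes of -0.09 and 0.02.

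The fibroblast genes Dcn and Dpt were at 254 to 313 and 144 to 204 FPKM in the sham group and at 258 to 298 and 163 to 181 FPKM in the VO group. In VO 1, where the macrophage markers were highest, the median log2 difference from the sham mean was 0.33 for 8 fibroblast genes and 0.01 for 8 endothelial genes.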
